A study of Mus musculus with 6 samples.

Results

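Type I interferon stimulated genes are 39 genes given by symbol, and each symbol matched 1 row of the deposited table of 43432 genes. All 39 passed the filter on low values, which left 21675 genes for testing, and the lowest value of any member in any library came from 33 reads. RNA of macrophages sorted from mammary glands was sequenced at 11 weeks and at 8 weeks of age, with 3 libraries per age. All libraries came from female MMTV-PyMT mice of the FVB/N strain, in which the promoter of mouse mammary tumour virus drives the polyomavirus middle T oncogene in mammary epithelium, so no mouse without the transgene is compared. The sort took cells with CD45, MHC class II and CD14 on their surface, and the study set early against late tumours. The titles number the samples of each age as an1 to an3, without spelling out whether each is a separate mouse, and p-values cover the spread between these libraries alone.

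Type I interferons are secreted proteins that cells release when receptors for viral or misplaced nucleic acid fire. They bind the receptor chains encoded by Ifnar1 and Ifnar2, and the kinases JAK1 and TYK2 then phosphorylate transcription factors, among them STAT2, which enters the nucleus with IRF9 and binds interferon stimulated response elements near the start of the target genes. Macrophages carry many of these target transcripts at a resting level, and those of IRF7, the nucleic acid sensors and the ISG15 system both follow from the response and feed back on it. In bulk RNA, more cells with a response and a stronger response per cell cannot be told apart.

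The promoters of several members are printed to show the element that such factors bind. The RefSeq promoter table for GRCm38.p6 held 29 of the 39 members, from 250 bases before the annotated start to 50 after it. Dhx58, Mx1, Mx2, Oas2, Parp14, Parp9, Rtp4, Siglec1, Usp18 and Zbp1 were not in it. The short form of the element searched was GAAANNGAA on both strands, where N is any base, and matches may overlap each other. Of the 29 genes 17 held it (58.6%), against 9.8% of all 27025 genes in the promoter table. Capitals mark GAAANNGAA or its reverse complement. The sequences below are the 5 members with the smallest p of the age comparison among those with a match, and Oasl1, which had the smallest p of all members and no match in this window.
Isg15 (chr4:156200769-156201068, minus strand): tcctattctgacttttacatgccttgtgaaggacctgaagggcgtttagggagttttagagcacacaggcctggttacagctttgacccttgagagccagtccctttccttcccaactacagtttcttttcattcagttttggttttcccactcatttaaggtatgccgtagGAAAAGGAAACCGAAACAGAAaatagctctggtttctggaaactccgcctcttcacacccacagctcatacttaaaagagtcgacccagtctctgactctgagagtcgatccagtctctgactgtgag
Rsad2 (chr12:26456403-26456702, minus strand): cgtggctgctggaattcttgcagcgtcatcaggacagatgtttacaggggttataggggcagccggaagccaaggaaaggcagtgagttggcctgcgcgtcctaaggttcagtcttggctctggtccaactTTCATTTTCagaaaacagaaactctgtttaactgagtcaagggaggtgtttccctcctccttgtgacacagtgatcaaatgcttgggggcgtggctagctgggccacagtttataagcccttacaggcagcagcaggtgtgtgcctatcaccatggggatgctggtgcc
Ifit3 (chr19:34583279-34583578, plus strand): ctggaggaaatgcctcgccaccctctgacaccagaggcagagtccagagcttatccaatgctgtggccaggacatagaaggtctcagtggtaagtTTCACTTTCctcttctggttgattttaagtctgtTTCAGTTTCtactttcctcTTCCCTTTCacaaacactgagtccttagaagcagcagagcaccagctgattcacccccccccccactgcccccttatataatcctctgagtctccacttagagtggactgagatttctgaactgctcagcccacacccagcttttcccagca
Ifit1 (chr19:34640639-34640938, plus strand): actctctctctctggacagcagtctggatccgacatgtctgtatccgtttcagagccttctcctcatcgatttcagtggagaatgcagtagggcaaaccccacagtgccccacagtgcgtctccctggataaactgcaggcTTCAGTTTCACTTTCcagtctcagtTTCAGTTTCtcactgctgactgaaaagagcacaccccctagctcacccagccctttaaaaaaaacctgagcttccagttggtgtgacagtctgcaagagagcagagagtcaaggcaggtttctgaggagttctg
Oas1a (chr5:120907476-120907775, minus strand): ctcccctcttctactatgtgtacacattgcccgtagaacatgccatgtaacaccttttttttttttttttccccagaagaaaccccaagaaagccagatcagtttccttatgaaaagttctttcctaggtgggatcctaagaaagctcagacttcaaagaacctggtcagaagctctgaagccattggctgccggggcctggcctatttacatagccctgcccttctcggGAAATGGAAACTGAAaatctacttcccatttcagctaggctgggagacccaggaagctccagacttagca
Oasl1 (chr5:114922990-114923289, plus strand): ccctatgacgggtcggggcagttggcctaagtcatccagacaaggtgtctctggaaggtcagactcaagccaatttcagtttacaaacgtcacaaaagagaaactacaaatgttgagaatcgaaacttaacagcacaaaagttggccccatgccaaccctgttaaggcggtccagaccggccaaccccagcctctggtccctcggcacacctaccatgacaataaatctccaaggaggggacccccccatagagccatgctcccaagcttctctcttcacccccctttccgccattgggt

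The 3 matches of Isg15 overlapped in 1 run on the strand of the gene, and those of Oas1a overlapped likewise. In Ifit3 and Ifit1, neighbours on chromosome 19, all 3 matches lay on the other strand. A match is a description of letters, and the absence of one in Oasl1 says only that they are not in this window.

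**Figure D1:**
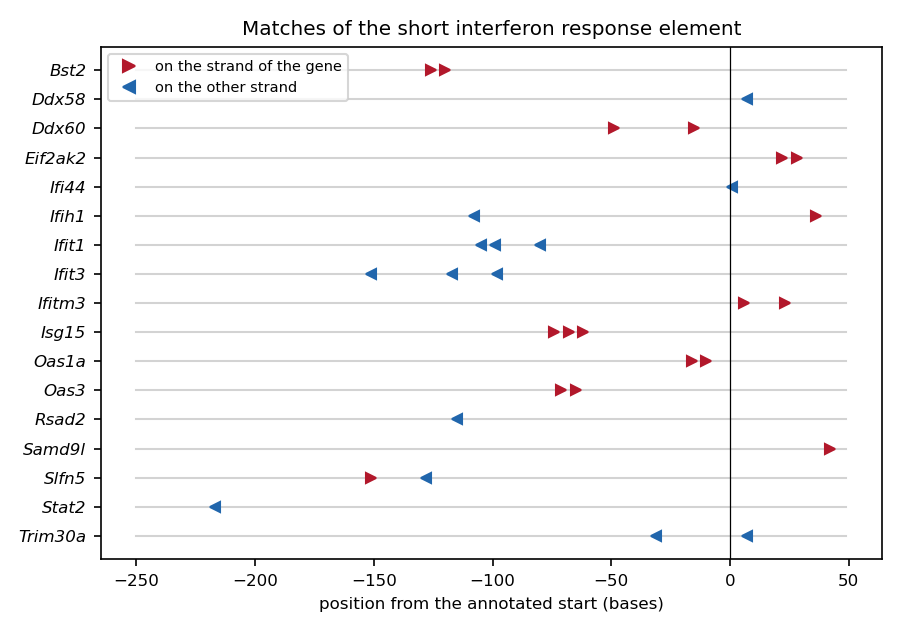
Position of each GAAANNGAA match, in bases from the annotated start, for the 17 members whose promoter window held it. Each grey line is the window from 250 bases before to 50 after the start, and arrowheads give the strand. Isg15, Ifit1 and Ifit3 have 3 matches each.

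At 11 weeks the 39 genes were higher in 1 library, replicate 1, and near the 8-week level in the other two. A score was taken as the mean over the members of log2(normalized count + 1), less each gene's mean over the 8-week libraries. It was 1.38, 0.12 and 0.02 in 11-week replicates 1, 2 and 3, against -0.26, 0.26 and 0.00 in 8-week replicates 1, 2 and 3. The scores averaged 0.51 ± 0.76 at 11 weeks and 0 by construction at 8 weeks, with an SD of 0.26 (SD, n = 3 per age). Replicate 1 gave 90.5% of the summed 11-week score. Without it the score difference was 0.07, less than the SD of the 8-week libraries. The summed level of the 39 genes was 174773, 79976 and 73368 normalized counts in the 11-week libraries and 70606, 92119 and 96200 in the 8-week libraries. Replicates 2 and 3 of 11 weeks thus lay inside the 8-week range by sum and by score, and replicate 1 stood above every other library.

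**Figure D2:**
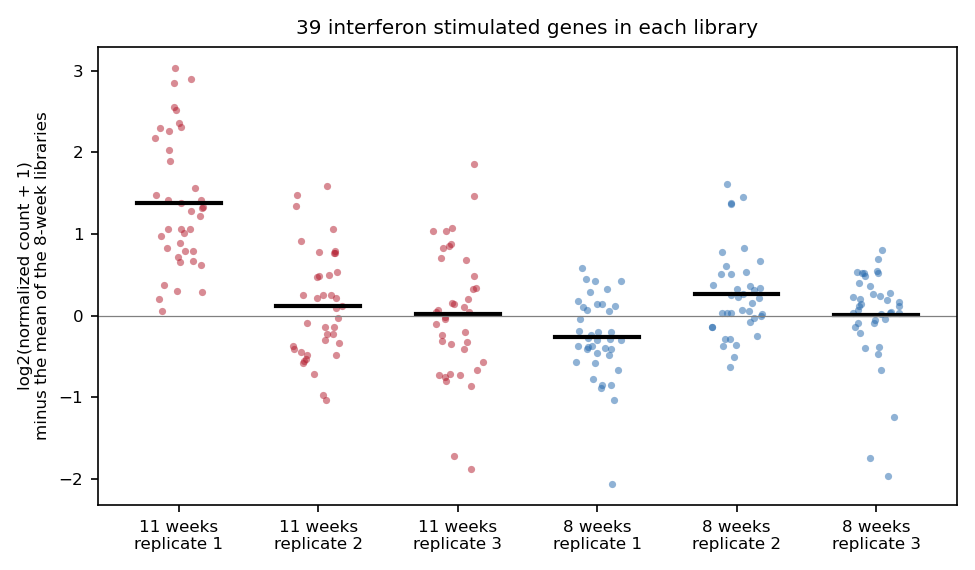
Each point is 1 of the 39 genes in 1 library, as log2(normalized count + 1) minus the mean of the 8-week libraries, and the black line is the mean of the library (its score). The 11-week libraries are red and the 8-week libraries blue. The line is at 1.38 in 11-week replicate 1 and between -0.26 and 0.26 in the other 5.

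By gene the picture was the same. In 11-week replicate 1 all 39 members lay above their 8-week mean and 36 above their 8-week range, where 27.0% of all tested genes lay above that range. In 11-week replicate 2 only 10 members (25.6%) lay above the 8-week range, where 26.2% of all tested genes did. In 11-week replicate 3 the count was 11 members (28.2%), where 29.9% of all tested genes did. Both of those shares are near the background. Replicate 1 was the highest of the 6 libraries for 35 of the 39 members, as it was for 17.5% of all tested genes. The exceptions were Mx2, highest in 11-week replicate 2, Dtx3l, highest in 8-week replicate 2, and Parp9 and Ifi35, highest in 8-week replicate 3. Within 11 weeks the members' median log2 difference of replicate 1 from the mean of the other two was 1.13, and that of all tested genes was 0.00. It ranged from -0.16 (Mx2) to 2.73 (Ifi44), and 24 members were at 1 or more, as were 18.5% of all tested genes. Its median was 1.59 over the 17 members with a GAAANNGAA match and 1.08 over the 12 members whose promoter held none, which was not tested. At the low end 8-week replicate 1 was the lowest of the 6 libraries for 14 members (35.9%), where it was so for 10.2% of all tested genes. Ties for the lowest went to the library listed first, with 11 weeks before 8 weeks. For genes at 0 in several libraries this takes from the share of 8-week replicate 1. The 10.2% is thus too low as a background, and no member is at 0.

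**Figure D3:**
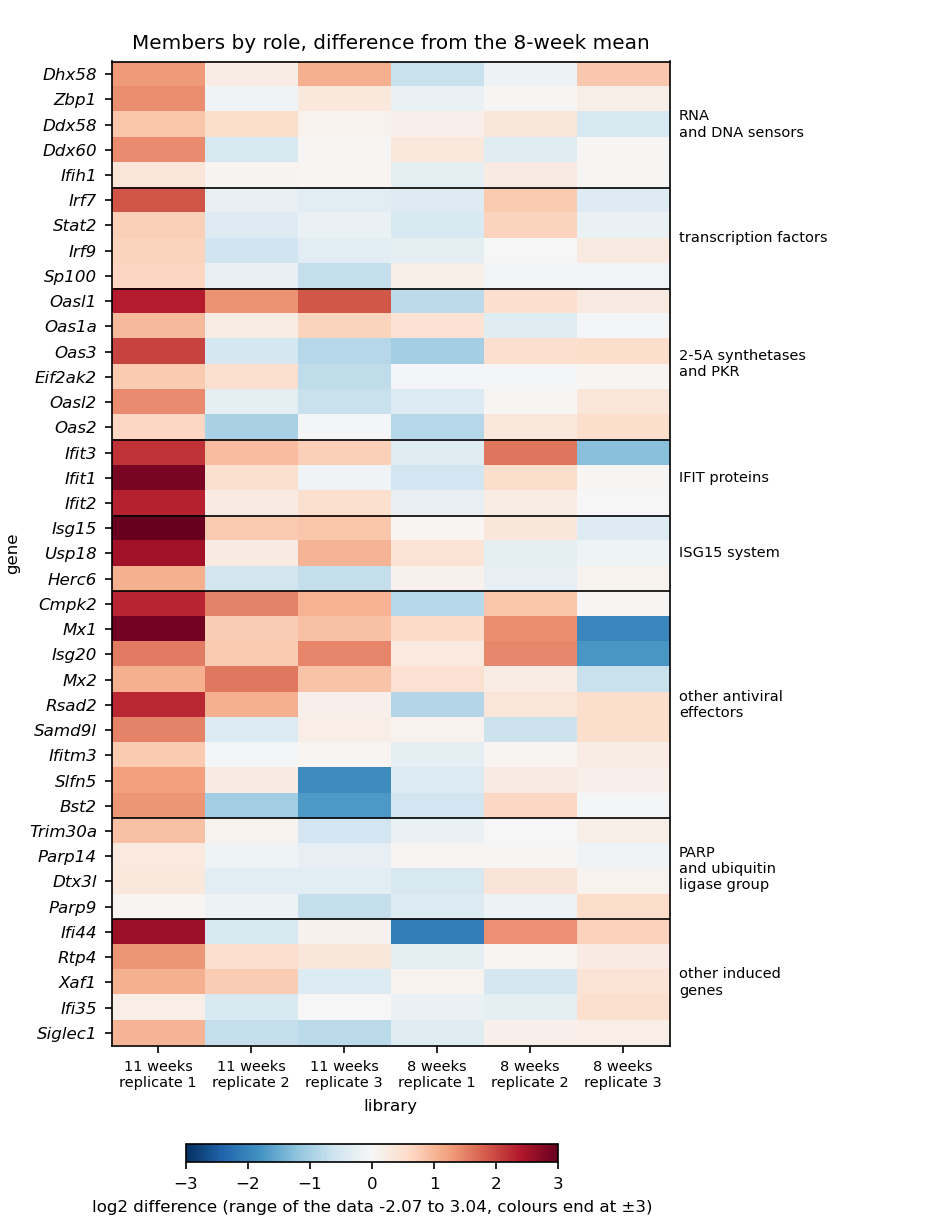
Rows are the 39 genes by role and columns the 6 libraries. Colour is the log2 difference from the 8-week mean, red above and blue below, and the column of 11-week replicate 1 has no gene below 0.

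Between the ages no member was called by limma at an adjusted p of 0.05 over all tested genes, where 0.0507% of all tested genes were. The smallest adjusted p was 0.127 (Oasl1), the next 0.442 (Cmpk2) and the highest 0.98 (Stat2). At an unadjusted p under 0.05, 7 members were higher at 11 weeks (17.9%, where 4.76% of all tested genes were) and none was lower. The edgeR quasi-likelihood test on recovered reads called 0 members at the adjusted threshold, where 0.0646% of all tested genes were called, and 8 higher at 11 weeks at the unadjusted one, where 4.98% of all tested genes were. DESeq2 on the same reads called 1 member, Oasl1, at the adjusted threshold, where 2.73% of the 15454 genes with an adjusted p were called, and 9 higher at 11 weeks at the unadjusted one (23.1%, where 5.65% of genes with a p were). The authors' deposited table has the same single member under 0.05, Oasl1 at an adjusted p of 0.002, where 1.91% of its genes with an adjusted p are. The p and adjusted p there are blank for Isg15 and Oas3.

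The log2 fold change of 11 over 8 weeks, on the log2(normalized count + 1) scale, was above 0 for 28 of the 39 members (71.8%), where 52.8% of all tested genes were above 0. Its median was 0.42 over the members and 0.05 over all tested genes. Without 11-week replicate 1 the median was -0.11 over the members and 0.06 over all tested genes, and 19 members stayed above 0. The other 9 turned below 0 and none of the 11 negative ones turned above it. The values of 6 members did not overlap between the ages and were higher at 11 weeks (15.4%, where 6.81% of all tested genes were): Oasl1, Cmpk2, Isg15, Ifit2, Rtp4 and Mx2. No member was lower without overlap, where 5.12% of all tested genes were.

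**Figure D4:**
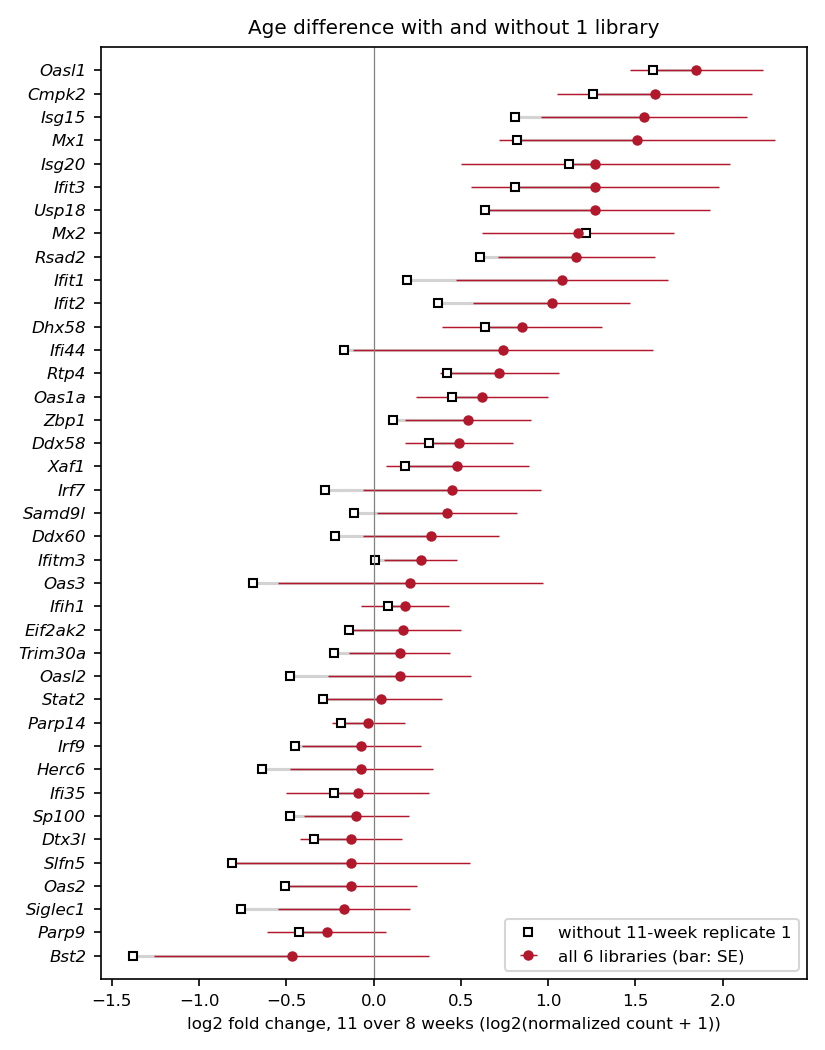
Log2 fold change of 11 over 8 weeks for each member, from all 6 libraries (red, with its SE) and without 11-week replicate 1 (open squares). Oasl1 has 1.85 with all libraries and 1.6 without that replicate, while Oas3 has 0.21 and -0.69.

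Oasl1 encodes an oligoadenylate synthetase-like protein without synthetase activity, known in mice to restrain translation of Irf7. It covers positions 114923240 to 114937915 of chromosome 5 (GRCm38, plus strand, protein-coding, ENSMUSG00000041827). It was at 2914.8, 1436.5 and 2050.2 normalized counts in the 11-week libraries, against 329.9, 804.9 and 681.6 in the 8-week libraries. Every 11-week library stood above every 8-week library. The log2 fold change was 1.85 ± 0.38 (SE; limma adjusted p = 0.127), and over the alternatives the adjusted p lay between 0.00108 and 0.423. Oasl2, next to it at 114896936 to 114912234, encodes a related protein of the oligoadenylate synthetase family and did not share that pattern. It was at 7146.2, 2185.5 and 1687.6 normalized counts in the 11-week libraries, against 2031.1, 2751.4 and 3461.7 in the 8-week libraries. Replicates 2 and 3 of 11 weeks were there within or below the 8-week values.

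Of the other oligoadenylate synthetase genes, whose products activate RNase L on double-stranded RNA, Oas1a was at 1002.2, 592.8 and 815.7 normalized counts at 11 weeks, against 683.9, 394.8 and 491.1 at 8 weeks (log2 fold change 0.62 ± 0.38, SE). Its groups overlapped through 11-week replicate 2. Oas3, the synthetase for long double-stranded RNA, was at 9137.8, 1551.4 and 1233.5 at 11 weeks and 1094.9, 3185 and 3208 at 8 weeks. The log2 fold change of Oas3 was 0.21 ± 0.76 (SE) with all libraries and -0.69 without 11-week replicate 1. Oas2 was at 5213.5, 1722.8 and 3297.3 at 11 weeks and 1878.7, 4232.3 and 4924.7 at 8 weeks, with replicate 1 only 1.06 times the next library. Eif2ak2, which encodes the double-stranded RNA-activated kinase PKR, was at 3627.4, 2923.4 and 1245.3 at 11 weeks and 2038.3, 2062.8 and 2197.6 at 8 weeks, and its 3 11-week libraries lay on both sides of all 8-week values. As a role group the score of these 6 genes was 1.36, 0.04 and 0.04 in the 11-week libraries.

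The IFIT proteins bind viral RNA that lacks host cap methylation, and their genes lie together on chromosome 19, Ifit2 at 34550694 to 34576419, Ifit3 at 34583531 to 34588731 and Ifit1 at 34640871 to 34650009. As a group they had the highest score of all role groups in 11-week replicate 1, 2.45, with 0.55 and 0.36 in replicates 2 and 3. Ifit1 was at 2481.7, 477.8 and 318.1 normalized counts at 11 weeks, against 229.2, 497.4 and 351.9 at 8 weeks. Replicate 1 was 4.99 times the next highest library, and the other two lay within the 8-week range. Ifit2 was at 3213.6, 767.2 and 905.4 at 11 weeks and 544.8, 756.4 and 650.8 at 8 weeks. Its groups did not overlap, yet 11-week replicate 2 exceeded the highest 8-week library by little. Ifit3 was at 640.9, 267.1 and 230.2 at 11 weeks and 108.8, 432.2 and 58.9 at 8 weeks. Its 8-week libraries spanned a wider range than 11-week replicates 2 and 3. Log2 fold changes of Ifit1, Ifit2 and Ifit3 were 1.08 ± 0.61, 1.02 ± 0.45 and 1.27 ± 0.71 (SE), and 0.19, 0.37 and 0.81 without replicate 1. Ifit1 and Ifit3, like Oas1a, have close copies in the mouse genome, so their counts are uncertain.

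Isg15 encodes a ubiquitin-like protein that is joined to other proteins or secreted, Usp18 the protease that removes it and also damps the receptor, and Herc6 a ligase that attaches it in mice. Isg15 (chromosome 4, 156199424 to 156200818) was at 1523.6, 319.6 and 328.1 normalized counts at 11 weeks, against 191.7, 232.7 and 140.9 at 8 weeks. All 11-week libraries were above all 8-week libraries, and replicate 1 was 4.64 times the next highest. The log2 fold change was 1.55 ± 0.59 (SE; limma adjusted p = 0.5), and 0.81 without replicate 1. Usp18 was at 686.9, 141.1 and 242.9 at 11 weeks and 158.7, 97 and 107.6 at 8 weeks, and replicate 2 of 11 weeks fell inside the 8-week range. Herc6 was at 2548.8, 825.6 and 740.5 at 11 weeks and 1337.5, 1022.4 and 1315.3 at 8 weeks. In Herc6 replicate 1 was above, and replicates 2 and 3 were below, every 8-week library.

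**Figure D5:**
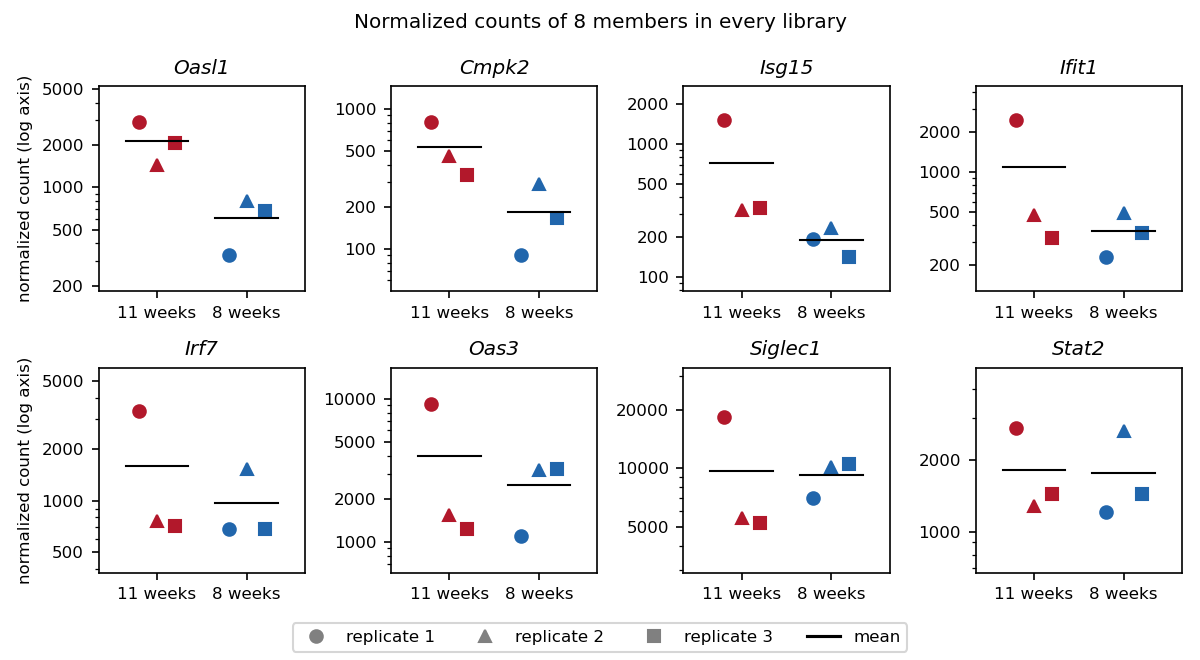
Normalized counts of 8 members on a log axis, 11 weeks left and 8 weeks right, with 1 symbol per replicate and a line at the mean. Replicate 1 is the top 11-week point in every panel. In Oasl1, Cmpk2 and Isg15 the ages do not overlap, while in Oas3 and Siglec1 the other two 11-week points lie within or below the 8-week points.

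Cmpk2 and Rsad2 are neighbours on chromosome 12 (26469204 to 26479835 and 26442753 to 26456452). Cmpk2 encodes a mitochondrial nucleotide kinase and Rsad2 viperin, which makes a chain-terminating nucleotide. Cmpk2 was at 810.1, 458.7 and 339 normalized counts at 11 weeks, against 90.1, 292.3 and 167.4 at 8 weeks. Its ages did not overlap, the log2 fold change was 1.61 ± 0.56 (SE; limma adjusted p = 0.442), and it was 1.26 without replicate 1. Rsad2 was at 5995.9, 2607.9 and 1389.4 at 11 weeks and 675.9, 1608.4 and 1797 at 8 weeks. Replicate 3 of 11 weeks was inside the 8-week range, and the log2 fold change of Rsad2 was 1.16 ± 0.45 (SE), or 0.61 without replicate 1.

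Mx1 and Mx2 encode dynamin-like GTPases that block virus replication. Mx2, annotated as a polymorphic pseudogene in the deposited table, was at 316.3, 457.7 and 272.8 normalized counts at 11 weeks, against 206.9, 175.9 and 94.8 at 8 weeks. It was the only member lower in replicate 1 than the mean of the other 11-week libraries, with a log2 fold change of 1.17 ± 0.55 (SE) with all libraries and 1.22 without it. Mx1 was at 1096.9, 249 and 268.3 at 11 weeks and 218.5, 382.4 and 36.7 at 8 weeks, and its ages overlapped. Isg20, an RNA exonuclease, was at 288.7, 167.3 and 268.3 at 11 weeks and 118.6, 266 and 28.2 at 8 weeks. In Mx1 and Isg20 8-week replicate 3 was far below the other 5 libraries.

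Other effectors followed replicate 1 alone. Ifitm3, which blocks virus entry at endosomes, was at 38767.2, 21909.7 and 23228.8 normalized counts at 11 weeks, against 18289.2, 23491.8 and 26354.9 at 8 weeks. Samd9l was at 6475, 1737.9 and 2661.9 at 11 weeks and 2504.6, 1490.7 and 3326.7 at 8 weeks. In both genes the other two 11-week libraries lay within the 8-week range. Slfn5 was at 10424.2, 5300.5 and 1212.7 at 11 weeks and 3352.5, 5346.2 and 4932.4 at 8 weeks, so that 11-week libraries were both its highest and its lowest. Bst2, which tethers budding virus, was at 420.2, 80.6 and 49.8 at 11 weeks and 111.5, 254.9 and 161.4 at 8 weeks. In Bst2 11-week replicates 2 and 3 were below every 8-week library, and the log2 fold change was -0.47 ± 0.79 (SE) in limma, 0.04 in edgeR, 0.06 in DESeq2, and -1.38 in limma without replicate 1.

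Among the sensors, Dhx58 encodes LGP2, Ddx58 RIG-I and Ifih1 MDA5, which detect double-stranded RNA, and Zbp1 detects nucleic acid in the Z form. Dhx58 was at 963.6, 459.7 and 832 normalized counts at 11 weeks, against 249.7, 358.8 and 692.7 at 8 weeks. Only 11-week replicate 2 overlapped the 8-week libraries, and the log2 fold change was 0.85 ± 0.46 (SE), or 0.64 without replicate 1. Ddx58 was at 2076.2, 1686.5 and 1250.8 at 11 weeks and 1287.5, 1467.1 and 840.4 at 8 weeks. Zbp1 was at 2633.4, 941.6 and 1259.8 at 11 weeks and 880, 1025.2 and 1131.7 at 8 weeks. Ifih1 varied little, from 2195.2 to 2720.7 at 11 weeks and from 1727.1 to 2506.1 at 8 weeks. Ddx60, a helicase tied to these sensors, was at 4777.6, 1281.3 and 1848 at 11 weeks and 2245.1, 1393.7 and 1831.2 at 8 weeks.

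The transcription factors of the response overlapped between the ages. Irf7, which drives interferon alpha genes, was at 3327.6, 765.1 and 715.1 normalized counts at 11 weeks, against 687.5, 1532.2 and 682.4 at 8 weeks. Its replicate 1 was 2.17 times the next highest library, 8-week replicate 2, and the other two lay inside the 8-week range. Irf9 was at 2194.8, 917.4 and 1113 at 11 weeks and 1135.9, 1378.5 and 1670.6 at 8 weeks. Stat2 was at 2726.3, 1279.3 and 1442 at 11 weeks and 1206.4, 2654.4 and 1438.3 at 8 weeks, where 8-week replicate 2 nearly equalled 11-week replicate 1. Sp100, a nuclear body protein, was at 4880.6, 2646.2 and 1879.8 at 11 weeks and 3505, 2931.5 and 2912.5 at 8 weeks. Without replicate 1 all 4 had a log2 fold change below 0, from -0.48 (Sp100) to -0.28 (Irf7).

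Parp9, Dtx3l and Parp14 encode ADP-ribosyltransferases and a ubiquitin ligase partner, and Trim30a a ring finger protein that damps Toll-like receptor signalling. They had the lowest group score in replicate 1, 0.39, and -0.13 and -0.47 in 11-week replicates 2 and 3. Parp9 was at 1290, 1121 and 748.6 normalized counts at 11 weeks, against 933.5, 1119.4 and 1815.8 at 8 weeks. Dtx3l was at 2595.7, 1661.3 and 1651.4 at 11 weeks and 1494.4, 2722.3 and 2272.8 at 8 weeks. These genes lie head to head on chromosome 16 and share 458 exon bases on opposite strands, so reads there cannot be assigned to either gene unless counting used strand, which is not stated. Trim30a was at 8807.7, 5148.3 and 3212.1 at 11 weeks and 4125.6, 4818.3 and 5415 at 8 weeks, and Parp14 ranged from 4835.4 to 6963.2 at 11 weeks and from 5337.3 to 5967.7 at 8 weeks.

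Of the remaining members, Rtp4, which encodes a receptor transporting protein, was at 2131.4, 1203.7 and 1073.1 normalized counts at 11 weeks, against 692.8, 883.9 and 1006.1 at 8 weeks. Its ages did not overlap, and the log2 fold change was 0.72 ± 0.34 (SE; limma adjusted p = 0.616), or 0.42 without replicate 1. Xaf1 was at 1450.9, 1183.5 and 523.9 at 11 weeks and 749, 486.3 and 918.2 at 8 weeks. Ifi44 was at 1629.3, 197.6 and 303.6 at 11 weeks and 65.1, 717.6 and 447.5 at 8 weeks, the member with the widest gap between replicate 1 and the other 11-week libraries. Siglec1, a sialic acid receptor of macrophages known as CD169, was at 18307.8, 5538.4 and 5210.6 at 11 weeks and 7029.7, 10132.6 and 10471.2 at 8 weeks. In Siglec1 replicate 1 exceeded all 8-week libraries and the other two lay below them all. Ifi35 ranged from 359.9 to 564.6 at 11 weeks and from 404.5 to 687.5 at 8 weeks.

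Levels between genes were compared as mean normalized counts per kilobase of exon over the 6 libraries, with exons from GENCODE M21. Ifitm3 was highest by far at 37375 per kilobase, followed by Siglec1 at 1323 and Trim30a at 1278. Mx2 was lowest at 70.3 per kilobase, then Usp18 at 85.7 and Cmpk2 at 86.4.

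Genes upstream of the response were described by lists written for this purpose. Of 20 interferon genes matched in the table, 16 had no read in any library, all of them alpha, epsilon, lambda or gamma genes, and an absence of reads allows up to 2.56 to 4.16 normalized counts per library (3 reads, counting error only). Ifnb1, the gene of interferon beta, was at 36.8, 58.5 and 10 normalized counts at 11 weeks, against 8, 0 and 0 at 8 weeks (limma adjusted p = 0.531). Its highest library was 11-week replicate 2 and not replicate 1, and all its values are low. Ifnk was at 11.8 to 23.9 at 11 weeks and 9.7 to 61.5 at 8 weeks. Of 12 receptor and JAK-STAT genes none was called, 6 had a log2 fold change above 0, and the median was -0.02. Ifnar1 ranged from 7116.8 to 8521.3 at 11 weeks and from 6770.3 to 8517.8 at 8 weeks, and Ifnar2 from 4123.9 to 5514.1 at 11 weeks and from 4582.8 to 5303.1 at 8 weeks. The lowest p in that list was that of Ifngr1, a chain of the interferon gamma receptor, at 5718.3, 5556.6 and 3513 at 11 weeks and 6691.7, 9642.2 and 6781.5 at 8 weeks (limma adjusted p = 0.46).

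Of 22 tested genes that lead to interferon production none was called, 13 had a log2 fold change above 0, and the median was 0.01. Ikbke, a kinase that activates IRF3 and IRF7, was at 1852.8, 2109.9 and 1861.6 normalized counts at 11 weeks, against 876.5, 478 and 1247.8 at 8 weeks. Its ages did not overlap and its log2 fold change was 1.27 ± 0.34 (SE; limma adjusted p = 0.283) with all libraries and 1.30 without replicate 1. The next smallest p were those of Unc93b1 and Irak4. Unc93b1 was lower without overlap, at 8676.2, 8383.2 and 6629 at 11 weeks and 10047.8, 11060.9 and 11731 at 8 weeks (limma adjusted p = 0.5). Irak4 was higher without overlap, at 3152.9, 2826.7 and 2712.7 at 11 weeks and 2164.9, 1681.8 and 1912.3 at 8 weeks (limma adjusted p = 0.54). Of 17 negative regulators none was called, 5 had a log2 fold change above 0, and the median was -0.25. Socs1, an inhibitor of JAK kinases, was at 34.9, 37.3 and 48 at 11 weeks and 2.7, 0 and 7.7 at 8 weeks (limma adjusted p = 0.492). Irf2bp2, a corepressor, was at 8382, 9582.9 and 4810 at 11 weeks and 10788.8, 10966.6 and 13751.8 at 8 weeks (limma adjusted p = 0.432). Cyld was at 1320.4, 1594.8 and 1235.4 at 11 weeks and 1812.7, 2291.4 and 3040.6 at 8 weeks (limma adjusted p = 0.479). Socs1 was higher without overlap, and Irf2bp2 and Cyld were lower without overlap. In all, 2 of the 17 negative regulators were higher without overlap and 4 were lower. Of the 22 genes that lead to interferon production, 2 were higher without overlap and 1 was lower. Over all tested genes these shares were 6.81% higher and 5.12% lower.

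A list of 70 other interferon stimulated genes outside the 39, of which 67 were tested, was used to see whether replicate 1 stood out there as well. The list, like the 39, was chosen with earlier results of these data known, so it is no independent check. Its score was 0.73, 0.10 and 0.10 in the 11-week libraries and -0.11, 0.14 and -0.03 in the 8-week libraries. Replicate 1 was the highest of the 6 libraries for 37 of the 67, where it was so for 17.5% of all tested genes. None was called, 49 had a log2 fold change above 0, where 52.8% of all tested genes did, and the median was 0.26 with all libraries and 0.08 without replicate 1. Slfn1, at 1240.4, 125 and 154.1 at 11 weeks and 132.9, 137.2 and 123 at 8 weeks, was among those high in replicate 1 alone, chosen after its values were seen. Adar, Helz2 and Ifi27l2a had the smallest p of this list. Adar, an RNA-editing deaminase, was at 1422.4, 1548.4 and 1367.7 at 11 weeks and 798, 774.4 and 777.2 at 8 weeks (log2 fold change 0.88 ± 0.29, SE; limma adjusted p = 0.415), and 0.89 without replicate 1. Helz2 was at 1034.4, 706.7 and 365.3 at 11 weeks and 203.3, 196.7 and 193 at 8 weeks (limma adjusted p = 0.31). Ifi27l2a was at 10780.9, 4275.3 and 6194 at 11 weeks and 2936.2, 4171.4 and 3437.7 at 8 weeks (limma adjusted p = 0.358). In all 3 genes, which were picked by p, every 11-week library stood above every 8-week library. Of the 67 genes, 7 were higher without overlap and 1 was lower, where 6.81% and 5.12% of all tested genes were.

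Library facts stand beside these values. Recovered depth was 62318862 reads in 11-week replicate 1, within the 38784434 to 75004880 of all 6 libraries, and mitochondrial ribosomal RNA took 46.4% of its normalized counts, within 35.2% to 51.8%. Macrophage markers (14 of 15 matched, none at 0) summed to 1090825, 1183727 and 1063367 normalized counts at 11 weeks, against 1202791, 1394183 and 1192970 at 8 weeks. These transcripts were thus abundant in every library, with no unsorted or other cells to compare. Lyz2 gave 441201.3 of that sum in 11-week replicate 1, and Adgre1 was the unmatched entry. The genes of the sort differed in direction. Cd14 was at 30445, 32594.4 and 38151 at 11 weeks and 22844.6, 23109.5 and 19463.2 at 8 weeks, higher without overlap but not called (log2 fold change 0.63 ± 0.15, SE; limma adjusted p = 0.198). Mrc1 and C1qb were likewise higher without overlap and not called. Csf1r and Ptprc, the gene of CD45, were lower at 11 weeks without overlap and not called. Their log2 fold changes were -0.27 ± 0.12 and -0.42 ± 0.14 (SE), with limma adjusted p = 0.609 and 0.434. Cd74 and H2-Ab1, genes of MHC class II presentation, were called lower at 11 weeks (log2 fold change -0.98 ± 0.11 and -0.84 ± 0.12, SE; limma adjusted p = 0.00111 and 0.0127). Mammary epithelial markers (16 of 16 matched, 4 at 0 in some library) summed to 51446.7, 26350.4 and 47879.5 at 11 weeks and 9438, 10943.2 and 12746.5 at 8 weeks, with the casein gene Csn3 called higher (limma adjusted p = 0.000888). Conventional dendritic cell markers summed to 73518.9, 34164.9 and 53344.2 at 11 weeks and 26364.8, 46802.2 and 60312.9 at 8 weeks. Clec10a gave 65323.6 of that sum in 11-week replicate 1, and the list's score, taken per gene as above, was 0.67, -0.09 and 0.63 at 11 weeks and 0.78, -0.24 and -0.54 at 8 weeks. Plasmacytoid dendritic cell markers, of a cell type known for interferon alpha, summed to 7271.3, 7063.6 and 8008.5 at 11 weeks and 7515.6, 8294.3 and 9969.1 at 8 weeks. Tcf4 gave 6636.8 of that sum in 11-week replicate 1 and most of it in every library. The score of the plasmacytoid list was -0.37, -0.15 and -0.21 at 11 weeks and 0.79, -0.02 and -0.77 at 8 weeks. The log2 fold change was above 0 for 3 of its 7 tested genes. Their defining gene Siglech was at 126, 102.8 and 252 at 11 weeks and 302.3, 478 and 307.5 at 8 weeks. Neutrophil markers summed to 6142.1, 6699.6 and 5947.5 at 11 weeks and 3357, 4508.1 and 1863.7 at 8 weeks. Csf3r gave 2730.2 of that sum in 8-week replicate 1. The neutrophil score was 1.77, 2.77 and 1.78 at 11 weeks and 0.42, 0.32 and -0.74 at 8 weeks. The log2 fold change was above 0 for 8 of its 9 tested genes, and 4 were higher without overlap, none called. NK cell markers summed to 823.9, 146.2 and 213 at 11 weeks and 315.6, 228.5 and 94.8 at 8 weeks. Klrk1 gave 651.9 of the NK sum in 11-week replicate 1, where Ncr1 was at 0. Classical monocyte markers summed to 134891.6, 115090 and 129107.7 at 11 weeks and 160775.3, 118585.5 and 171316.4 at 8 weeks, with Fn1 called lower (limma adjusted p = 0.0354). Fn1 and F13a1 make up most of that sum, and the list's score was 0.70, 0.04 and -0.03 at 11 weeks and -0.78, 0.24 and 0.54 at 8 weeks, highest in 11-week replicate 1 and lowest in 8-week replicate 1. The log2 fold change was above 0 for 6 of the 10 monocyte markers, with a median of 0.63 that was 0.35 without 11-week replicate 1, and Vcan and Hp were higher without overlap and not called. T cell markers summed to 4954.2 to 6011.3 at 11 weeks and 5429.5 to 6449.2 at 8 weeks. Cd4 and Il7r make up most of that sum. The score of the T cell list was 0.05, 1.41 and 1.19 at 11 weeks and 0.43, -0.04 and -0.39 at 8 weeks. The log2 fold change was above 0 for 5 of its 9 genes, and Cd3e and Trac were higher without overlap and not called. B and plasma cell markers summed to 328.3 to 1489.2 at 11 weeks and 462.7 to 957.4 at 8 weeks. Endothelial markers summed to 521.2 to 1072.2 at 11 weeks and 210 to 400.3 at 8 weeks. Cdh5 gave 569.2 of the 652.9 in 11-week replicate 1, and the endothelial genes differed in direction. The score of that list was -1.42, -1.19 and 1.74 at 11 weeks and 0.70, 0.20 and -0.90 at 8 weeks. Fibroblast markers summed to 1290.2 to 3022.6 at 11 weeks and 585.1 to 1050.1 at 8 weeks. Bst2 is also in the plasmacytoid list. The part of these cells in the interferon values was not tested.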

How the data were processed

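Macrophage RNA of 6 libraries was analysed, prepared with Nugen Ovation and Nextera kits from under 100 ng of RNA, per the labels' protocols. Per the submitters' processing notes, STAR 2.4, DESeq2 1.6 and the GRCm38 build were used, with no role given, while the counter and gene annotation are not given in the sources used. The deposited table of 43432 genes holds 1 signal value per library, which by its values is a read count over a size factor of that library ("normalized counts"). It also holds the authors' own 11-over-8-week log2 fold change, linear fold, p-value and adjusted p. Dividing by the worth of 1 read gave whole reads within 0.05 normalized counts for 99.828% to 99.989% of the nonzero values. In 11-week replicate 2 the worth of 1 read is 1.00808, too near 1 for its lowest values to show the step. No libraries were identical, and within an age they differed beyond counting noise (chi-square over its degrees of freedom 116.3 to 331.5).

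The test was limma (trend, robust) on log2(normalized count + 1), with age as its only term, over genes with a mean of at least 1 in either age, with Benjamini-Hochberg adjustment over all 21675 at 0.05. A count test had been planned in case of raw counts, and edgeR and DESeq2 on recovered reads became alternatives. Genes to which DESeq2 gave no adjusted p were left out of its share. The added 1 understates changes of low genes. Values in every library are given for members of each role with the smallest p or no overlap between ages, for up to 3 genes per pathway list, and beyond that rule for members chosen after their values were seen. The members and lists were chosen with earlier results of these data known. Exon lengths and overlaps come from GENCODE M21 (GRCm38), which held all 39 members, and 14 members share exon bases with another gene. Whether counting used strand is not stated. Listed genes that matched no row by symbol were left out, among them Ifit1bl1, Ifit3b and Ifna13. Depth was 38784434 to 75004880 reads per library, and floors cover counting error only. The steps were checked on simulated data with known answers. Tests ran in R 4.3.3 with DESeq2 1.42.0, edgeR 4.0.16 and limma 3.58.1. Tables and plots used numpy 2.4.6, matplotlib 3.10.9 and pandas 2.3.3 under Python 3.11.15.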

Additional observations from a re-analysis of the deposited data

How the results depend on the processing

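No member was called under edgeR, any scaling, filter or pseudocount, or with any library left out, and Oasl1 alone was called with DESeq2 and with a replicate block (1 member each). Over all genes the count of calls was 11, and it was 422 with DESeq2, 4 with scaling to library totals, 45 with the replicate block, and 3 to 16 with 1 library left out (4 without 11-week replicate 1, 3 without 8-week replicate 1). The replicate number is only a shared number: deviations of same-numbered libraries correlated at -0.026, -0.004 and -0.024, and no library correlated best with its own number. The members' median log2 fold change lay between 0.34 and 0.55 under the alternatives that keep all libraries and between -0.11 and 0.64 with 1 left out, and only leaving out 11-week replicate 1 turned it. The score difference lay between 0.42 and 0.56, and between 0.07 and 0.75 with 1 library left out. The members without overlap numbered 5 with scaling to library totals and 6 otherwise. The promoter share was 51.7% with an element longer by 1 base, where 4.0% of all genes in the promoter table held it.

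Of 624 single-member results under 16 alternatives, 576 kept their direction and side of the threshold, 46 changed direction and 2 became calls. The 20 members that changed direction all had a fold change that was not called. edgeR gave 0.04 for Bst2, 0.15 for Herc6, 0.06 for Siglec1 and 0.30 for Slfn5, DESeq2 gave 0.06, 0.16, 0.07 and 0.31 for the same genes and 0.01 for both Irf9 and Sp100, scaling to totals gave -0.05 for Stat2, and upper-quartile scaling 0.02 for Parp14. With 1 library left out the log2 fold change ranged from -0.48 to 0.56 for Oasl2, -0.56 to 0.29 for Oas2, -0.69 to 0.75 for Oas3, -0.28 to 0.83 for Irf7, -0.45 to 0.18 for Irf9, -0.30 to 1.42 for Ifi44, -0.22 to 0.73 for Ddx60, -0.29 to 0.38 for Stat2, -1.38 to 0.15 for Bst2, -0.64 to 0.25 for Herc6, -0.47 to 0.01 for Parp9, -0.19 to 0.07 for Parp14, -0.23 to 0.50 for Trim30a, -0.23 to 0.15 for Ifi35, -0.14 to 0.63 for Eif2ak2, -0.76 to 0.15 for Siglec1, -0.81 to 0.74 for Slfn5, -0.11 to 0.84 for Samd9l, -0.48 to 0.21 for Sp100 and -0.37 to 0.06 for Dtx3l. The cause was not tested. With 3 libraries per age, 1 library can set the sign of the median, and low genes such as Ifnb1 rest on few reads.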
